A study of Mus musculus with 16 samples.

Results

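The data described here are the 8 arrays, of 16 in the series, that were made from mouse livers perfused with a medium holding the complete set of amino acids, and they were chosen by the +Met entry in their titles. The KO group came from mice with a global Gcn2-/- deletion, 3 to 6 months old, and the WT group from their Gcn2+/+ littermates of the same ages. All livers were taken through a single-pass perfusion, and the labels give neither strain nor sex. In each genotype 2 arrays read unfractionated RNA and 2 arrays read polysome RNA, taken from a sucrose gradient, so that 4 KO arrays stood against 4 WT arrays. Each array held RNA pooled from 2 livers, which evens out the animals, and the number of pools limits the precision. The other 8 arrays (titled -Met) came from the same genotypes and fractions after perfusion without methionine, and they share no array with the 8 described.

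Gcn2, encoded by Eif2ak4, is a protein kinase that is switched on by uncharged tRNA when an amino acid runs short. It phosphorylates the initiation factor eIF2, which slows translation in general and favours translation of the transcription factor ATF4. ATF4 in turn raises transcription of genes for amino acid synthesis, amino acid uptake and tRNA charging, many of them through a promoter sequence called the C/EBP-ATF response element. The comparison of KO with WT livers at full amino acid supply asks which mRNAs depend on Gcn2 when no amino acid is withheld.

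Signals are on the authors' linear array scale, on which the trimmed mean of each array is 150. A log2 fold change below is KO minus WT on log2(signal + 16) with RNA fraction as a term, so it understates the change of dim genes, and its error is a standard error (SE) from limma. A gene is said to have risen, fallen or been called when its Benjamini-Hochberg adjusted p, over the 10916 genes tested, was below 0.05. The arrays resembled each other in general terms: between 26.9% and 28.4% of probe sets reached a signal of 80, and replicate arrays correlated across genes at r of 0.971 to 0.976 on the log2 scale. Hepatocyte markers on the array had summed signals of 95330 to 98860 in KO unfractionated arrays, against 84800 to 94490 in WT unfractionated arrays, and of 80540 to 82050 in KO polysome arrays, against 72740 to 78820 in WT polysome arrays. The KO sums were the higher in both fractions, and 0 of the 8 tested members were called. The p-values measure the spread between arrays, which were taken to come from 2 pools per genotype. The labels do not say that the fractions of a replicate number share a pool, and this was taken from correlated deviations. The fractions of a pool are not independent, so p-values that count 8 arrays are too small to that extent.

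The deleted gene is given first. Eif2ak4 had signals of 41.8 and 44.0 in KO unfractionated RNA, against 103.5 and 84.0 in WT unfractionated RNA. In polysome RNA it had 49.5 and 22.3 in KO arrays, against 91.6 and 101.8 in WT arrays. The KO arrays lay below the WT arrays in both fractions, and the log2 fold change was -1.03 ± 0.20 (SE; limma, adjusted p = 0.021). The call was lost when WT unfractionated replicate 1, KO unfractionated replicate 1, either WT polysome array or KO polysome replicate 2 was left out, with fold changes from -1.16 to -0.85 over the 8 single omissions and a largest adjusted p of 0.084. The call was also lost with no filter on dim genes (limma, adjusted p = 0.072) and with the fractions of each pool averaged (0.10). Without a pool the value ran from -1.21 to -0.85. In the arrays without methionine Eif2ak4 differed by -0.65 ± 0.24 (SE; limma, adjusted p = 0.23) and was not called. A dimmer Eif2ak4 probe set, with a mean signal of 4.09, differed by 0.13, and the mean of both gave -0.45, not called. The labels do not say whether either probe set reads the deleted part of the transcript, so the remaining KO signal checks the genotype only in its direction.

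Across both fractions 216 genes were called, 111 higher (1.02% of genes tested) and 105 lower (0.962%) in KO livers, and 1336 genes had an unadjusted p below 0.05. All 216 had non-overlapping KO and WT arrays in both fractions, which held for 12.32% of all genes tested. Effects were small for many of them: 126 of the 216 had a log2 fold change under 1 in size. The median of all genes was 0.0055. With each array scaled to its median the split was 60 higher and 137 lower, and the median of all genes moved to -0.13. Taking the fractions of a pool as paired, 153 of the 216 calls remained, 79 higher and 74 lower, and with the 2 fractions of each pool averaged, so that a pool counts once, 65 remained, 36 higher and 29 lower. The counts also depended on single arrays: without KO unfractionated replicate 1 there were 63 higher and 63 lower, and without WT unfractionated replicate 1 there were 67 and 55. They fell to 69 and 69 without KO polysome replicate 2, to 76 and 66 without KO polysome replicate 1, and to 72 and 71 without KO unfractionated replicate 2. Of 63 named genes that were called, 42 kept their call without each of the 8 single arrays, and 32 also without each of the 4 pools; the exceptions are given below.

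**Figure D1:**
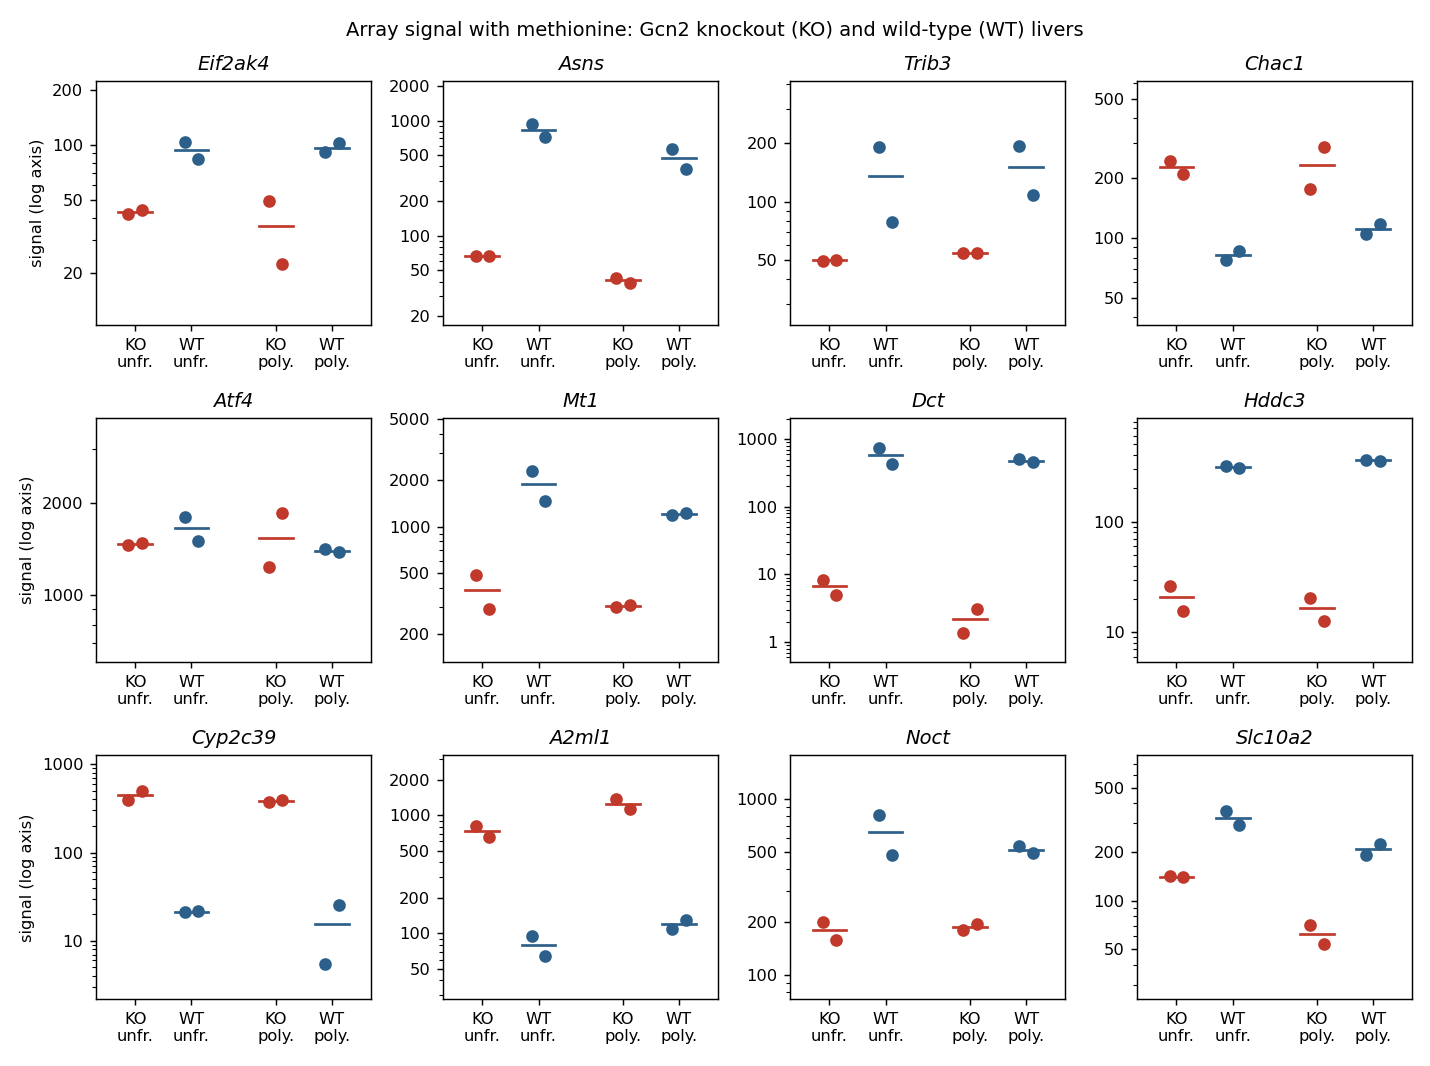
Signals of 12 genes in the 8 arrays with methionine, on log axes, with KO arrays (red) left of WT arrays (blue) in unfractionated (unfr.) and polysome (poly.) RNA. Points are single arrays and lines are group means; Asns lies between 39.2 and 67.1 in KO arrays and between 377.5 and 942 in WT arrays, while the Atf4 groups overlap in the polysome arrays.

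The promoters of 3 genes of the ATF4 programme are shown because their mRNAs went different ways in KO livers (Asns fell, Chac1 rose and Nupr1 did not pass the test). Each line gives the 250 bases before the transcription start on the gene's strand, 5′ to 3′, from RefSeq (GRCm38.p6), at chr6:7693210-7693459 (minus strand) for Asns, chr2:119350992-119351241 (plus strand) for Chac1 and chr7:126625471-126625720 (minus strand) for Nupr1. Capitals mark the match to the C/EBP-ATF response element, searched as TGATGNAAN on both strands.
Asns: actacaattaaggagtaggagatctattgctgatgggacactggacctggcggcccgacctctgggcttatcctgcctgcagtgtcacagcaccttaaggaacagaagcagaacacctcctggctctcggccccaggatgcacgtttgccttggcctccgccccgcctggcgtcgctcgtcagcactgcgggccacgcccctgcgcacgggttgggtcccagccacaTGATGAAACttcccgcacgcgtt
Chac1: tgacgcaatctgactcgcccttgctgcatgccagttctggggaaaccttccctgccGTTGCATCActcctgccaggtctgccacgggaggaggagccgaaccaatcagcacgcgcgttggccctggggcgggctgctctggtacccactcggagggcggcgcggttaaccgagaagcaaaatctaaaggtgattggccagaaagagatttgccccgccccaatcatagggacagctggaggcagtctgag
Nupr1: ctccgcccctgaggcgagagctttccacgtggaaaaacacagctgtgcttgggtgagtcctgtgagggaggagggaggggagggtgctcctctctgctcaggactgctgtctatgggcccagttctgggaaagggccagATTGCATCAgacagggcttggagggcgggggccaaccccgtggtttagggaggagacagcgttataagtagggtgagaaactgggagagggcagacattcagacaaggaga
The match starts 23 bases before the start in Asns, 194 bases before it in Chac1 and 111 bases before it in Nupr1. In the window from 250 bases before to 50 bases after the start, 12 of the 32 tested ATF4 targets with a promoter in the table held a match (37.5%), against 247 of 8908 tested genes (2.77%) and 1299 of 32851 promoters (3.95%). Among genes called in the comparison of KO with WT, 7 of 170 with a promoter held it (4.12%). A match is a description of the letters and no evidence that a factor binds there.

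Asparagine synthetase, Asns, the enzyme that makes asparagine and a standard readout of ATF4, fell most among the ATF4 targets. It had 66.7 and 67.1 in KO unfractionated arrays, against 942 and 722 in WT unfractionated arrays, and 42.8 and 39.2 in KO polysome arrays, against 563 and 377.5 in WT polysome arrays. The log2 fold change was -3.20 ± 0.16 (SE; limma, adjusted p = 2.2e-07), it stayed between -3.34 and -3.10 without any single array, and the gene's second probe set gave -3.77. Every KO array thus stood far below every WT array in the presence of methionine.

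Of the other ATF4 targets, Gpt2, a mitochondrial alanine transaminase, had 793 and 849.8 in KO unfractionated arrays, against 1725 and 1296 in WT unfractionated arrays, and 1009 and 1092 in KO polysome arrays, against 2105 and 1686 in WT polysome arrays. Its log2 fold change was -0.84 ± 0.13 (SE; limma, adjusted p = 0.0034), and its 4 probe sets ran from -0.84 to -0.60. The call was lost without the WT replicate 1 pool (-0.66). Trib3, a pseudokinase that restrains ATF4 signalling, had 49.9 and 50.1 in KO unfractionated arrays and 54.6 in each KO polysome array, against 190.7 and 79.2 in WT unfractionated arrays and 194 and 108 in WT polysome arrays. The KO arrays of Trib3 were nearly alike and the WT arrays were not, and the log2 fold change of -1.14 ± 0.24 (SE; limma, adjusted p = 0.029) lost its call without 6 of the 8 single arrays (largest adjusted p = 0.11). Its second probe set, at a mean signal of 68.0, gave -0.41, and the call was lost with the mean of both. Its replicate 1 pool carried the higher WT values in both fractions, and without the 2 arrays of that pool the fold change was -0.67. Atf5, a transcription factor related to ATF4, fell by 0.94 on the log2 scale (SE 0.22; limma, adjusted p = 0.046), with an adjusted p of 0.068 once the fractions of a pool were paired and a lost call without 6 of 8 single arrays. Without the KO replicate 2 pool the value for Atf5 was -0.54.

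Chac1, an enzyme that degrades glutathione and a textbook target of ATF4, went the other way. It had 245 and 210.5 in KO unfractionated arrays, against 78.1 and 86.0 in WT unfractionated arrays, and 177 and 288 in KO polysome arrays, against 105 and 118 in WT polysome arrays. The log2 fold change was 1.12 ± 0.17 (SE; limma, adjusted p = 0.0038), and the call held without each single array, with values from 1.03 to 1.29, but was lost without the WT replicate 1 pool or the KO replicate 2 pool, with values from 1.01 to 1.23 over the 4 pools. Chac1 lies 17 tested genes after Eif2ak4 on chromosome 2 in the RefSeq gene order.

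The mRNA of Atf4 itself showed no difference that passed the test. It had 1462 and 1475 in KO unfractionated arrays, against 1795 and 1506 in WT unfractionated arrays, and 1235 and 1848 in KO polysome arrays, against 1415 and 1380 in WT polysome arrays, with a log2 fold change of -0.02 ± 0.14 (SE). ATF4 is controlled at its translation, which the level of its mRNA does not read. Ddit3, which encodes the stress factor CHOP, differed by -0.16 ± 0.21, Atf3 by -0.69 ± 0.41, Nupr1 by -0.95 ± 0.40 and the hormone gene Fgf21 by -0.96 ± 0.50 (SE), and none of these was called, with groups that overlapped in at least a fraction. Eif4ebp1, an inhibitor of cap-dependent translation, differed by -0.17 ± 0.13 and Vldlr, a lipoprotein receptor, by 0.05 ± 0.25. Psat1, Sesn2 and Slc7a11 were too dim to test: Psat1, for serine synthesis, had 5.24 to 22.2 in KO arrays and 18.5 to 38.9 in WT arrays.

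Of 46 listed ATF4 targets 44 were on the array and 37 were tested. Among these 37, 1 was called higher and 4 lower, against 1.98% of all genes called in either direction, and 29 of the 37 had a negative log2 fold change. Their median was -0.16, beside 0.0055 for all genes. Without methionine 1 ATF4 target, Nupr1 (1.48), was called higher and 2, Asns and Atf5, lower, with a median of -0.16. Gpt2 (-0.20), Trib3 (-0.44) and Chac1 (0.43) were not called there, so the members called differed between media.

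**Figure D2:**
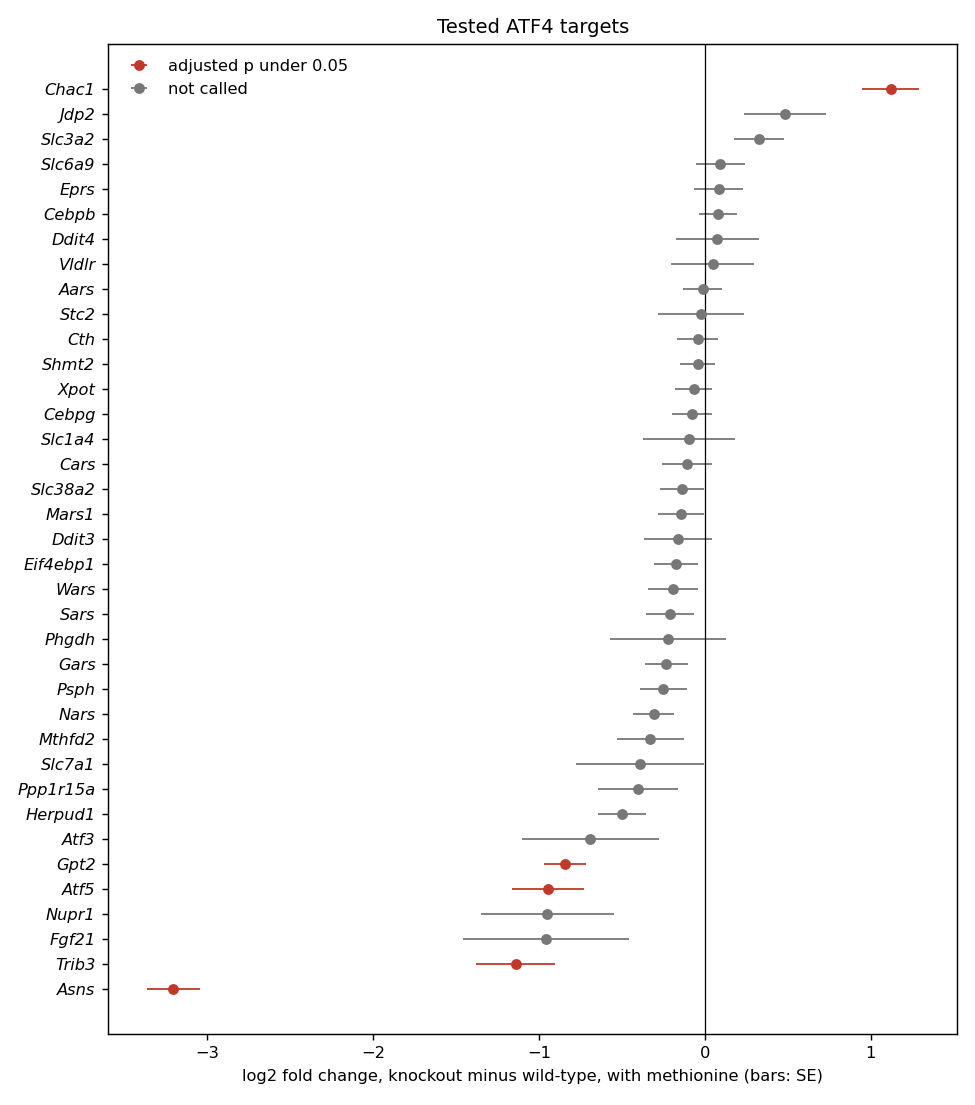
Log2 fold change (KO minus WT, with methionine, bars are SE) of the 37 tested ATF4 targets, ordered by value, with called genes in red. Asns at -3.20 stands apart from the others, Chac1 at 1.12 is the 1 called rise, and most points lie between -0.50 and 0.50.

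Lists of other genes that handle amino acids held few calls in number, where 1.98% of all genes tested were called in either direction. Of 22 cytosolic tRNA synthetase genes, which charge tRNA, 0 were called (fold changes from -0.31 to 0.09, median -0.07). The 18 amino acid transporters likewise gave 0 calls, and Slc1a2, a glutamate carrier, had the largest difference at -0.72 ± 0.18 (SE; limma, adjusted p = 0.061). The serine, glycine and folate one-carbon list (14 tested) and the methionine cycle and transsulfuration list (17 tested) gave 0 calls as well, with fold changes between -0.50 and 0.48. Of 36 urea cycle and amino acid catabolism genes, Gpt2 was lower and Mccc1, a subunit of the leucine-degrading methylcrotonyl-CoA carboxylase, was higher by 0.61 ± 0.12 (SE; limma, adjusted p = 0.021), a call lost without 5 of 8 single arrays. Eif2ak4 was the 1 gene called among 18 eIF2 kinases and regulators: the kinases Eif2ak1, Eif2ak2 and Eif2ak3 differed by 0.01, 0.31 and -0.05, none past the test. In data simulated with independent arrays 66% of genes changed by 1 on the log2 scale were called, so shifts of that size or smaller in these lists could go undetected. The simulation held no pools, so that share may be too high for fractions that share a pool.

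Protein synthesis and folding genes gave few calls in number, where 1.98% of all genes tested were called in either direction. The 40 tested cytosolic ribosomal protein genes had a median of 0.13 and 0 calls, a sign that turned to -0.03 with each array scaled to its median. Proteasome subunits (31 tested, median -0.06) and endoplasmic reticulum chaperones (24 tested, median 0.04) also gave 0 calls. Among 15 heat shock proteins the inducible chaperone Hspa1b fell. It had 337.6 and 467 in KO unfractionated arrays, against 959 and 2737 in WT unfractionated arrays, and 114.5 and 195 in KO polysome arrays, against 462 and 1032 in WT polysome arrays. WT replicate 2 carried the higher value in both fractions. Its log2 fold change was -2.04 ± 0.31 (SE; limma, adjusted p = 0.0038), it was -1.38 without the WT replicate 2 pool, and the call was lost without the KO replicate 1 pool, while its near-identical copy Hspa1a differed by -0.83 ± 0.28 and was not called.

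The largest falls outside the amino acid response included genes with almost no signal in KO arrays. Dct, which encodes dopachrome tautomerase of the melanin pathway, had 8.41, 4.90, 1.38 and 3.04 in the KO arrays, against 746, 433, 502 and 461 in the WT arrays, unfractionated values first in each group. The log2 fold change of Dct was -4.73 ± 0.18 (SE; limma, adjusted p = 3.9e-08). Of 7 melanocyte markers on the array 2 reached a signal of 80 in any of the 8 arrays, and the other tested ones, Mitf and Sox10, differed by -0.20 and 0.09. Hddc3, related to bacterial hydrolases of the alarmone ppGpp, had 26.0, 15.4, 20.4 and 12.7 in KO arrays, against 319.9, 307, 366 and 353 in WT arrays, with a log2 fold change of -3.36 ± 0.17. Ctse, the aspartic protease cathepsin E, had 39.5, 8.70, 47.1 and 11.4 in KO arrays, against 867, 771, 849 and 608 in WT arrays (-4.32 ± 0.28). Without methionine Ctse differed by -1.49 ± 0.63 and was not called. The KO arrays there split by replicate, with 405 and 602.5 in replicate 1 but 38.7 and 46.3 in replicate 2. The WT arrays without methionine had 577, 277, 774 and 380, so low Ctse was not seen in every KO pool. With methionine the KO and WT arrays of these genes did not come near each other, and their choice had required no overlap within a fraction. Ankrd33b (-3.14 ± 0.27), the cilium gene Cfap126 (-2.12 ± 0.25), Atpsckmt, a methyltransferase acting on ATP synthase (-2.02 ± 0.15), and Sugct, a glutarate CoA-transferase (-1.86 ± 0.18), fell as well and kept their calls without each single array. Bcl6, a transcriptional repressor, fell by 1.66 on the log2 scale (SE 0.18), with -0.84 from its second probe set at a mean signal of 80.8, and was not called in a fit of all 16 arrays.

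For several of these genes the fall was seen by a single probe set. A second probe set differed by 0.11 for Ankrd33b (mean signal 82.0, beside 99.4 for the probe set used) and by 0.13 for Sugct (106.5, beside 159). For Ctse, Hddc3 and Atpsckmt the second probe set differed by 0.19, -0.05 and 0.07, at mean signals of 34.1, 13.2 and 16.2. Which transcripts the differing probe sets read was not tested. Dct and Cfap126 have 1 probe set each.

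Among the largest rises, Cyp2c39, a cytochrome P450 of the 2C family, had 399 and 504 in KO unfractionated arrays, against 21.1 and 21.8 in WT unfractionated arrays, and 378 and 389.7 in KO polysome arrays, against 5.45 and 25.5 in WT polysome arrays. Its log2 fold change was 3.69 ± 0.20 (SE; limma, adjusted p = 4.1e-07). A2ml1, related to the protease inhibitor alpha-2-macroglobulin, had 809.5, 659, 1381 and 1132 in KO arrays, against 95.1, 64.3, 109.6 and 129.8 in WT arrays (3.11 ± 0.15). Clec2h, a C-type lectin, rose by 2.91 ± 0.24 and its other probe sets gave 2.30 and 3.14. In these 3 genes every KO array stood above every WT array, and their choice had required such a separation within each fraction.

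Ighm, the heavy chain of immunoglobulin M, had 529 and 707 in KO unfractionated arrays and 436 and 1769 in KO polysome arrays, against 41.8 and 5.05 in WT unfractionated arrays and 16.04 and 50.2 in WT polysome arrays. The log2 fold change was 4.23 ± 0.40 (SE; limma, adjusted p = 9.3e-05), a second probe set gave 2.66, and the other 9 probe sets, with mean signals of 53.9 or less, gave -0.53 to 0.84. Ighm was the 1 of 8 B and plasma cell markers on the array to reach a signal of 80, and the tested markers Jchain and Mzb1 differed by -0.24 and 0.31. The other large rises were Zfp874a, a zinc finger gene (3.55 ± 0.33), the predicted gene Gm7969 (3.11 ± 0.23), Asic5, an ion channel (2.87 ± 0.17), Tiam2, a guanine nucleotide exchange factor for Rac (2.60 ± 0.19), Rbm45, an RNA-binding protein (2.43 ± 0.20), the actin nucleator Fmn2 (2.41 ± 0.32), the pseudogene Adh6-ps1 (2.24 ± 0.28) and Ifi202b, of the interferon-inducible p200 family (1.88 ± 0.25). For Tiam2 the other 2 probe sets gave 0.42 and 0.22. Without methionine Rbm45 (1.19 ± 0.39) and Ifi202b (0.17 ± 0.33) were not called. Rbm45 there had 114 and 115 in WT replicate 1 but 457 and 495 in WT replicate 2, against 560, 526, 490 and 686 in KO arrays. Ifi202b there had 87.3 and 96.2 in WT unfractionated arrays, against 46.2 and 94.4 in KO unfractionated arrays. In polysome RNA it had 8.63 and 43.6 in WT arrays, against 33.9 and 64.3 in KO arrays.

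The metal-binding metallothioneins Mt1 and Mt2 fell. Mt1 had 484 and 291 in KO unfractionated arrays, against 2282 and 1471 in WT unfractionated arrays, and 298 and 310.3 in KO polysome arrays, against 1186 and 1230 in WT polysome arrays (log2 fold change -2.09 ± 0.18, SE; limma, adjusted p = 3.2e-05). Mt2 fell by 1.48 on the log2 scale (SE 0.19). The remaining 5 tested members of the list, Mt3 and zinc carriers, differed by 0.06 to 0.36 and were not called. Without methionine Mt1 differed by a similar -2.28, but the unfractionated arrays there had 1123 and 719.6 in KO livers, against 1516 and 12580 in WT livers, and the difference was not called (SE 0.58; limma, adjusted p = 0.067). In a fit of all 16 arrays, which shares their spread, neither Mt1 nor Mt2 was called with methionine.

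Acute phase proteins, plasma proteins whose mRNAs rise in inflamed liver, were split. Of 25 tested, 2 rose and 2 fell, where 1.02% of all genes rose and 0.962% fell. Apcs, serum amyloid P component, had 4616, 3853, 3405 and 2004 in KO arrays, against 1052, 1113, 822 and 801 in WT arrays, a log2 fold change of 1.81 ± 0.16 (SE; limma, adjusted p = 3.4e-05). Fga, the fibrinogen alpha chain, rose by 0.74 ± 0.11, while Fgb and Fgg, the other chains, differed by 0.12 and 0.13. Saa2, a serum amyloid A, had 118, 136, 159.7 and 112.5 in KO arrays, against 195.5, 646, 263.5 and 710.4 in WT arrays. Its fall (-1.49 ± 0.34, adjusted p = 0.041) and that of Saa1 (-1.29 ± 0.28, adjusted p = 0.035) were lost without 6 of 8 single arrays, and WT replicate 2 carried the higher values in both fractions. Without the arrays of that WT pool the fold change was -0.73 for Saa2 and -0.71 for Saa1. Lcn2, another member of the list, differed by -0.63 ± 0.27 and was not called. The cytokine-induced inhibitor Cish rose by 1.47 ± 0.27 (adjusted p = 0.016), lost without 4 of 8 single arrays, and 24 interferon response genes and 21 immediate early genes gave 0 calls.

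Circadian genes are listed by their phase. Of 9 tested clock genes that peak with Dbp 2 fell, 0 rose, 8 had negative fold changes and the median was -0.70, where 0.962% of all genes fell and 5363 of 10916 were negative. Of 5 that peak with Bmal1 1 rose, 0 fell, all 5 had positive fold changes and the median was 0.44, where 1.02% of all genes rose. Both lists had the other sign without methionine. The Dbp list then had 8 positive and 1 negative fold changes (median 0.28), where 5253 of 10916 genes were positive. The Bmal1 list had 0 positive and 5 negative (median -0.70). Noct, a rhythmic phosphatase, had 200.6, 158.5, 180.4 and 197 in KO arrays, against 814.5, 482, 542 and 491 in WT arrays, a log2 fold change of -1.55 ± 0.17 (SE; limma, adjusted p = 0.00028). The clock output factor Dbp had 240.2 and 29.5 in KO unfractionated arrays, against 3104 and 584 in WT unfractionated arrays. In polysome RNA it had 415.7 and 42.5 in KO arrays, against 2634 and 571 in WT arrays, so the replicate pools stood far apart within each genotype. Its fold change was -3.32 ± 0.72 (SE; limma, adjusted p = 0.034), the call was lost without 4 of 8 single arrays, and the value was -1.97 without the KO replicate 2 pool. In the arrays without methionine Dbp differed by 1.80 ± 0.71 (SE) and was not called. Npas2, a partner of BMAL1, rose by 1.30 ± 0.26 (adjusted p = 0.024) at signals under 80, a call lost without 6 of 8 single arrays. The labels do not state the time of day of each perfusion, and its part in these values was not tested.

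Metabolic gene lists held few calls each, where 1.02% of all genes rose, 0.962% fell and 5553 of 10916 had positive fold changes. Of 28 cytochromes P450 of families 1 to 3 (20 positive and 8 negative, median 0.21), Cyp2c39, Cyp2b10 (1.36 ± 0.22) and Cyp2c29 (0.93 ± 0.11) rose and 0 fell. The 25 members not called ran from -3.03 to 1.03. Among NRF2 targets (15 tested, 13 positive and 2 negative, median 0.28) the glutathione transferases Gstm3 (0.89 ± 0.14) and Gstm2 (0.48 ± 0.11) rose, and Gstm2 had an adjusted p of 0.074 with the fractions of a pool paired. Without methionine the P450 list had 10 positive and 18 negative values (median -0.11), and the NRF2 list 8 and 7 (median 0.04). With each array scaled to its median, their medians with methionine were 0.056 and 0.125. Of 28 PPARA targets Acot1, a fatty acyl-CoA thioesterase (0.69 ± 0.13), and Pdk4, a kinase that restrains pyruvate oxidation (0.64 ± 0.14), rose, with an adjusted p of 0.068 for Pdk4 when paired. Among 19 fatty acid synthesis genes Thrsp, a regulator of lipogenesis, fell by 0.98 on the log2 scale (SE 0.18), and 19 cholesterol synthesis genes gave 0 calls. Slc10a2, a bile acid transporter, had 142, 139.4, 70.1 and 53.7 in KO arrays, against 360.6, 292, 191 and 225 in WT arrays (-1.32 ± 0.15; limma, adjusted p = 0.00049), and it was the 1 call among 22 bile acid genes. Apoa4, an apolipoprotein, fell by 0.70 (SE 0.14), a call lost without 5 of 8 single arrays.

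Of 14 genes listed as male-biased in mouse liver 3 fell and 0 rose, where 0.962% of all genes fell, and 2 of the 3 calls were lost with the fractions of a pool paired. Hsd3b5, a steroid dehydrogenase, had 3167, 4690, 1739 and 3366 in KO arrays, against 8727, 9429, 6153 and 5618 in WT arrays (-1.25 ± 0.18; limma, adjusted p = 0.0026). The falls of the fatty acid hydroxylase Cyp4a12a (-0.90 ± 0.21) and of C8a, a complement component (-0.44 ± 0.10), had adjusted p of 0.059 and 0.080 with the fractions of a pool paired. The 7 tested female-biased genes gave 0 calls. Sult5a1, a sulfotransferase, fell by 0.77 (SE 0.15), and Tpmt, a thiopurine methyltransferase, by 0.53 (SE 0.12), with an adjusted p of 0.093 for Tpmt when paired. Saa1 and Saa2, the Gstm genes, the Cyp2c genes and the copies of Hspa1 are close relatives whose probe sets may share signal, so their single values are uncertain to that extent.

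Many calls did not survive the loss of an array. Gstm2 (values from 0.42 to 0.51), C8a (-0.47 to -0.40) and Tm7sf3 (0.56 to 0.74) lost theirs whichever of the 8 arrays was left out, with folds of about the same size, and Pdk4, Tpmt and Nr1i3 without each of 7, all but KO unfractionated replicate 2. Tomm40l and Cyp4a12a kept their calls without either fraction of KO replicate 2, Npas2 and Trib3 without either fraction of WT replicate 2, and Saa1 and Saa2 without either fraction of WT replicate 1, and each lost it without the other 6. Atf5 kept its call without KO unfractionated replicate 1 or WT polysome replicate 1 alone. Dbp and Cish lost theirs without either fraction of WT replicate 1 or of KO replicate 2. Thrsp lost its call without WT unfractionated replicate 1, either KO unfractionated array or KO polysome replicate 2, and Sult5a1 without either fraction of WT replicate 2 or of KO replicate 1. Acot1 lost its call without WT unfractionated replicate 2 or either KO unfractionated array, and Apoa4 without WT unfractionated replicate 2, either WT polysome array or either fraction of KO replicate 1. Mccc1 lost its call without either WT unfractionated array, KO unfractionated replicate 1 or replicate 2 of a polysome group. The value of Cyp4a12a was -0.45 without the KO replicate 1 pool. Gstm3, Cyp2b10, Dusp12 and Pcp4l1 kept their calls without each single array but lost them without the replicate 2 pool of either genotype, 3110045C21Rik and Stk38l without the WT replicate 1 pool, and Rps4l without each pool but that one.

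**Figure D3:**
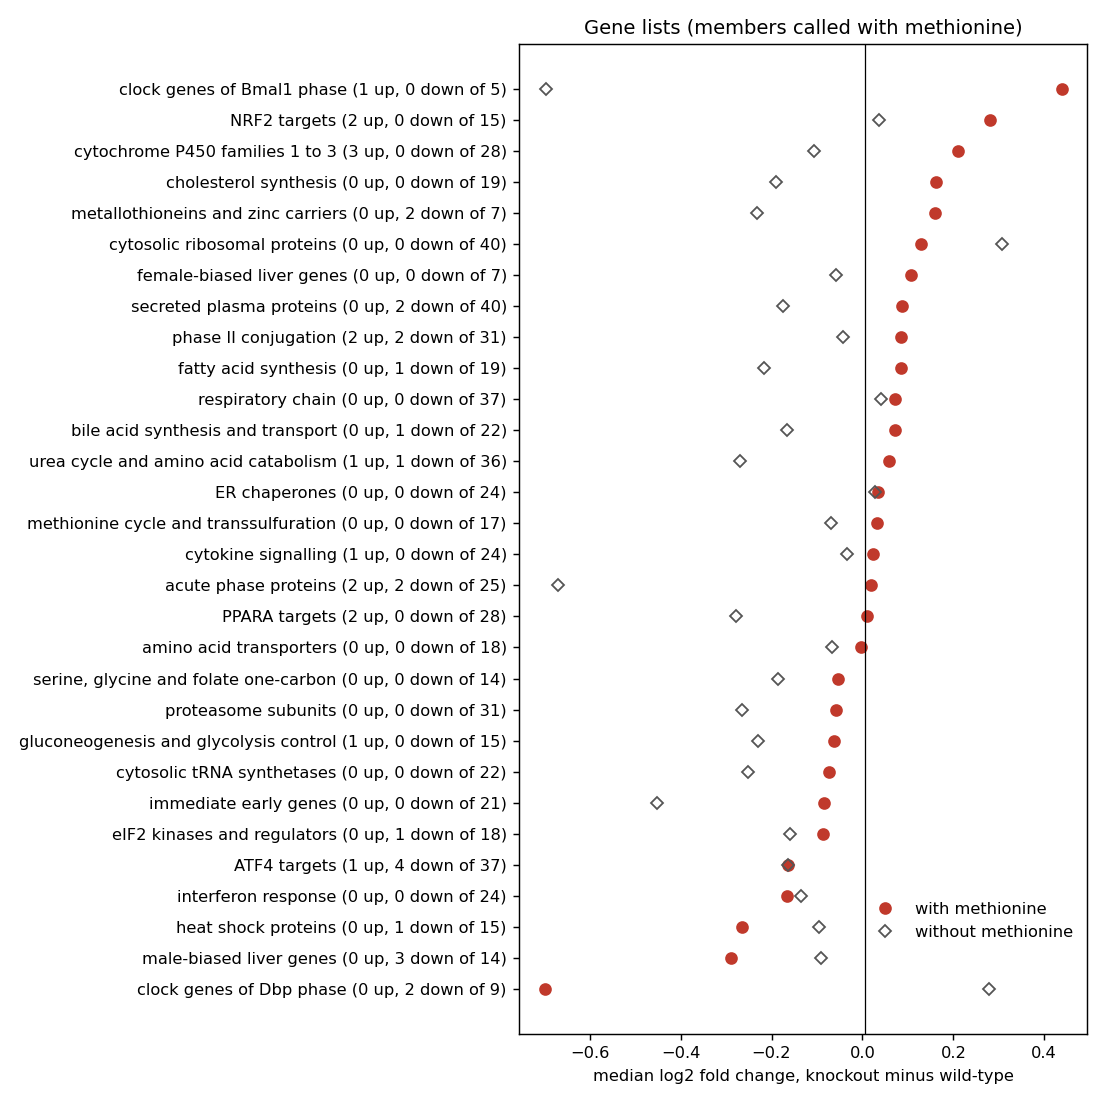
Median log2 fold change (KO minus WT) of each pathway list with at least 4 tested genes, with methionine (red dots) and without (open diamonds), and the number of members called higher and lower with methionine. The vertical line is the median of all genes at 0.0055; the 2 clock lists lie farthest out, at -0.70 and 0.44 with methionine.

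Markers of other liver cells were measured beside these lists. Of 12 tested markers of Kupffer cells, the resident macrophages of liver, 2 fell, 0 rose and 11 had negative fold changes (median -0.36). Of all genes 0.962% fell and 5363 of 10916 were negative. In unfractionated RNA 11 of the 12 were negative (median -0.53), and in polysome RNA 8 (median -0.11). Without methionine 10 were negative (median -0.18). The summed signal of the Kupffer cell markers was 3260 and 3468 in KO unfractionated arrays, against 4266 and 4467 in WT unfractionated arrays. In polysome RNA it was 1502 and 1581 in KO arrays, against 1796 and 1949 in WT arrays. The groups did not overlap in either fraction, which held for 8 of the 11 marker lists, hepatocytes included. Cd5l, a secreted macrophage protein, had 114, 172, 81.2 and 84.7 in KO arrays, against 489, 499.8, 145 and 301 in WT arrays, a log2 fold change of -1.45 ± 0.21 (SE; limma, adjusted p = 0.0030). Csf1r, the receptor that macrophages need to survive, fell by 0.63 (SE 0.14; adjusted p = 0.040). In whole liver, fewer cells of a type and less RNA per cell cannot be told apart.

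Of 8 tested stellate cell and fibroblast markers Dcn (0.73 ± 0.16) and Rgs5 (0.83 ± 0.19) rose, where 1.02% of all genes rose. The summed signal of the stellate cell and fibroblast markers was 1719 to 2180 in KO unfractionated arrays and 1325 to 1669 in WT unfractionated arrays. Of the 5 erythroid markers on the array 2 were tested and the transcription factor Klf1 fell by 1.003 on the log2 scale (SE 0.18). These marker genes were named after their values were seen and were not refitted with arrays left out. The 10 tested endothelial markers gave 0 calls. Neutrophil markers summed to 177 to 653 in KO arrays and 119 to 153.5 in WT arrays, with 1 of 9 reaching a signal of 80. Pancreas acinar markers, all 7 of which reached 80, summed to 1132 to 4037 in KO arrays and 1260 to 2806 in WT arrays. T and NK cell markers did not reach 80 in any array, and of 6 cholangiocyte markers 2 did. The part of differing cell types in the called genes was not tested.

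Each fraction was also tested alone. In unfractionated RNA alone 50 genes were called (28 higher and 22 lower, 0.458% in all), and in polysome RNA alone 32 genes (18 higher and 14 lower, 0.293%), with 27 genes in both. All 216 genes called over both fractions had the same direction in each, which their choice from a fit over both largely fixes. The test of the difference, KO minus WT in polysome RNA less KO minus WT in unfractionated RNA, called 0 genes, with 278 at an unadjusted p below 0.05 and an adjusted p of 0.9994 for the genes with the smallest p-values, and with 2 arrays per group it does not show that the fractions act alike. Among those, the vesicle transport gene Rab11fip1 had a KO minus WT value of -0.35 in polysome RNA and 0.99 in unfractionated RNA, and the noncoding gene 1110038B12Rik had 0.61 in polysome RNA and -0.82 in unfractionated RNA. Asns had -3.07 in polysome RNA and -3.34 in unfractionated RNA.

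Genes near Eif2ak4 were looked at in gene order. Of the 40 tested genes nearest to it, 20 on each side, 2 were called (5%, against 1.98% of all genes), both higher in KO livers: Chac1, and Exd1, an exonuclease-domain gene 19 tested genes after Eif2ak4, at 1.34 ± 0.17. None of the nearest 20 was called, and 3 of the nearest 80 were, the third being Haus2, named after its value was seen. Elsewhere calls stood close together in 2 stretches, which were picked by their calls. On chromosome 1, 6 of 19 tested neighbours were called (31.6%): 3110045C21Rik (-1.59), the phosphatase gene Dusp12 (-0.80), Cfap126 (-2.12) and the mitochondrial import gene Tomm40l (-0.72) fell, while Pcp4l1 (1.22) and Nr1i3, the xenobiotic receptor CAR (0.57), rose, Nr1i3 with an adjusted p of 0.053 when paired. On chromosome 6, 4 of 13 were called (30.8%), all higher: Tm7sf3 (0.68), the kinase gene Stk38l (0.86), Ccdc91 (0.99) and Rps4l (0.64), Tm7sf3 with an adjusted p of 0.068 when paired. Other probe sets gave 0.20 and -0.09 for Ccdc91 (mean signals 144.5 and 139) and 0.63 and 0.29 for Stk38l (129 and 59.7), and Ccdc91, Stk38l, Tm7sf3 and, on chromosome 1, Tomm40l lost their calls with the mean of probe sets. Without methionine 2 of the 6 and 1 of the 4 were called in the same direction.

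The genotype effect was measured again in the 8 arrays without methionine. There 207 genes were called (1.9% of genes tested), 95 higher (0.87%) and 112 lower (1.03%). Of the 216 genes called with methionine, 174 (80.6%) had the same direction without it, against 6022 of all 10916 genes (55.2%). In the same direction 58 were called again, 28 higher and 30 lower, which is 26.9% of the 216 and 28% of the 207, and 5 were called in the opposite direction. Genes called higher with methionine had a median of 0.93 there, a value fixed in part by their choice, and of 0.39 without it, and genes called lower had medians of -0.92 and -0.49.

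Asns, Dct, Hddc3, Cyp2c39 and A2ml1 were among those called again. Their values with and without methionine were -3.20 and -3.38 for Asns, -4.73 and -4.01 for Dct, -3.36 and -2.54 for Hddc3, 3.69 and 3.75 for Cyp2c39 and 3.11 and 3.16 for A2ml1, and the test of the difference between media called none of the 5. Asns in the -Met arrays had 53.7, 60.9, 43.8 and 92.4 in KO livers, against 1137, 877, 536 and 702.5 in WT livers. Its KO signal was therefore low in both media and its WT signal high in both.

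**Figure D4:**
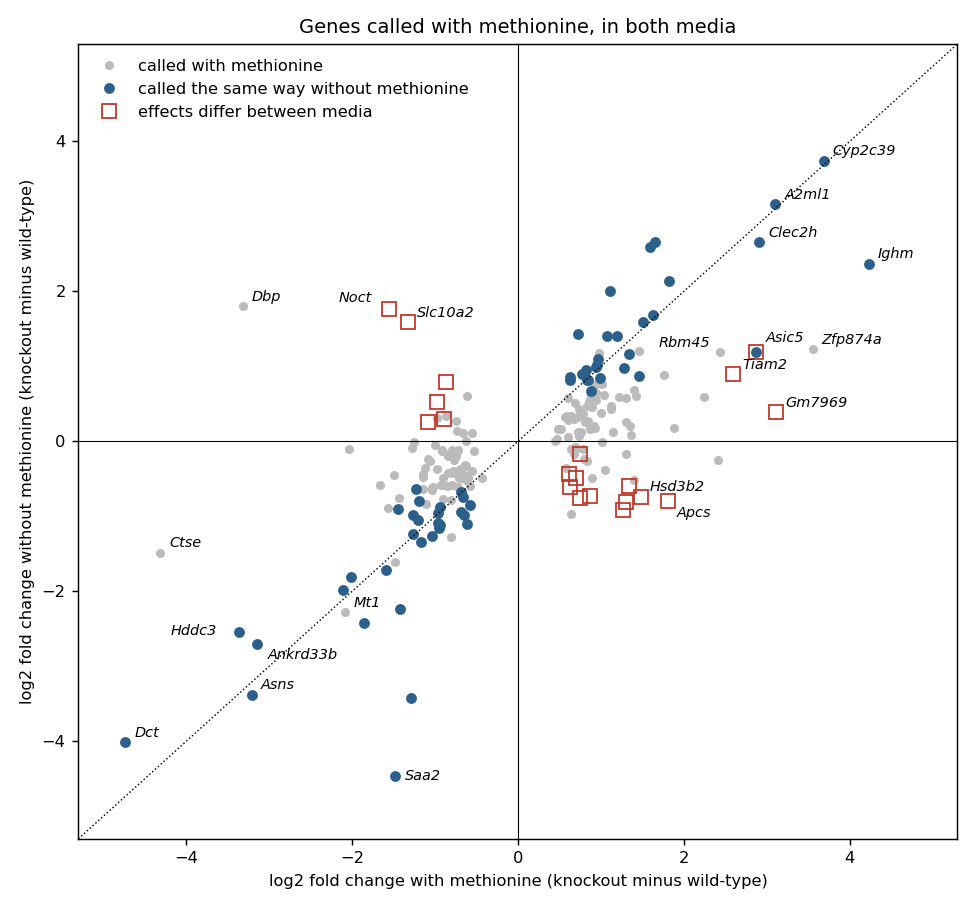
Log2 fold change (KO minus WT) with methionine on the x axis and without methionine on the y axis for the 216 genes called with methionine; blue points were also called the same way without methionine, open red squares differ between media, and the dotted line marks equal values. Asns, Cyp2c39 and A2ml1 lie near the line, while Noct and Slc10a2 lie on opposite sides of 0.

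The genotype effect differed between media for 32 genes, 20 with a higher and 12 with a lower value with methionine (0.293% of genes tested), and 20 of the 32 were among the 216. With the fractions of a pool paired the counts were 11 and 6. Noct had values of -1.55 with methionine and 1.77 without, a difference of -3.32 ± 0.30 (SE; limma, adjusted p = 9.8e-06). Slc10a2 had -1.32 and 1.59, a difference of -2.91 ± 0.25 (adjusted p = 8.7e-06). For both genes the KO arrays were the higher ones without methionine: Noct had 499, 464, 375 and 439 in KO arrays there, against 74.0, 198, 103 and 127 in WT arrays. Noct is one of the circadian genes above, and the part of the time of day of perfusion in its difference was not tested.

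A further group was higher in KO livers with methionine and less so, or lower, without it. Apcs had 1.81 with methionine and -0.79 without, and Hsd3b2, a steroid dehydrogenase, had 1.48 and -0.74, with differences of 2.60 ± 0.40 and 2.22 ± 0.25. Gm7969 had 3.11 and 0.39, Tiam2 2.60 and 0.90, and Asic5 2.87 and 1.19. Gm7969 signals were 117, 198.5, 175 and 277 in KO arrays with methionine, against 6.80, 0.716, 10.6 and 12.4 in WT arrays with methionine. Without methionine they were 149, 92.6, 115 and 157 in KO arrays, against 66.0, 129.7, 58.0 and 140.2 in WT arrays. The groups were thus far apart in the +Met arrays and overlapped in the -Met arrays. Zfp874a (adjusted p = 0.061 for the difference), Fmn2 (0.060) and Adh6-ps1 (0.074) had differences of 2.33, 2.65 and 1.65 that did not pass the test.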

How the data were processed

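The authors' deposited value table gave a linear intensity for each of 45101 Affymetrix probe sets; the summary algorithm and scaling are not given in the sources used here. In the values as deposited, the mean trimmed by 2% at each end is 150 in every array, so they were used without further scaling. Probe sets were named from the platform's annotation and RefSeq symbols (34945 had 1 symbol, 932 several and 9160 none), and the probe set with the highest mean over the 16 arrays stood for each of 18193 genes. The dimmest 40% were left out. log2(signal + 16) was fitted with limma 3.58.1 in R 4.3.3 (lmFit, then eBayes with trend, two-sided, Benjamini-Hochberg over 10916 genes): KO against WT with fraction as a term (5 residual degrees of freedom), within each fraction, in the -Met arrays, and as differences between fractions and media.

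Replicate numbers were checked as pairings: deviations from group means correlated between the unfractionated and polysome arrays of a number (r of 0.317 and 0.233 with methionine, 0.184 and 0.218 without), so fractions of a number were taken as a pool and paired p-values come from duplicateCorrelation. The main design has no block. Replicate arrays were not identical (0% of equal values).

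The named genes are the 12 largest rises and 12 largest falls with non-overlapping arrays, up to 4 called members of each list by smallest p, 25 genes chosen by name, called genes near Eif2ak4 or in runs (4 or more called of 11 tested neighbours), the 5 largest rises and falls of the other comparisons, and, where none is called, the 3 smallest p-values in each direction. Members and the 41 lists were chosen with earlier results of these data known. Listed symbols absent from the array (108 of 910) were left out. Alternatives were other scalings, pseudocounts of 1 and 64, filters, probe set means, no variance trend, blocks and omissions of arrays. On data simulated for the comparison with methionine (10916 genes), the fit recovered 66% of genes changed by 1 and 97% of genes changed by 2 on the log2 scale. The simulated arrays were independent, without pools, so these shares may be too high for the real arrays. Scripts used Python 3.11.15 with pandas 2.3.3 and matplotlib 3.10.9.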

Additional observations from a re-analysis of the deposited data

Results flagged for a closer look

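In 14 named genes the effect of the genotype (KO minus WT on the log2 scale) differed between media, by the limma test of the difference itself, with minus without methionine. The value was higher with methionine for Gm7969 (2.72, adjusted p = 0.0012), Apcs (2.60, adjusted p = 0.0047), Acnat2 (2.40, adjusted p = 0.050), Hsd3b2 (2.22, adjusted p = 0.00015), Lrtm1 (2.19, adjusted p = 0.028), Npas2 (2.10, adjusted p = 0.022), Tiam2 (1.70, adjusted p = 0.023), Asic5 (1.69, adjusted p = 0.011) and Fga (0.92, adjusted p = 0.017). It was lower with methionine for Noct (-3.32, adjusted p = 9.8e-06), Slc10a2 (-2.91, adjusted p = 8.7e-06), Pfkfb3 (-2.52, adjusted p = 0.039), Per1 (-2.07, adjusted p = 0.017) and Serpina12 (-2.04, adjusted p = 0.039). With the fractions of a pool paired, Acnat2 (0.072), Lrtm1 (0.055), Pfkfb3 (0.064) and Serpina12 (0.055) no longer passed. Acnat2, Per1, Pfkfb3 and Serpina12 were not called in the comparison with methionine. The labels do not state the time of day of each perfusion. Its part in the differences of circadian genes such as Noct and Npas2 was not tested. Groups here hold 2 arrays each, too few for a test of single outlying arrays.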

How the results depend on the processing

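Of the 63 named genes called, 26 kept their call under all alternatives run and 32 under all omissions of an array or a pool; the cause of losses was not tested. Scaling to the array median gave 60 genes higher with methionine, no variance trend 54 and 50 (higher and lower), means of both fractions per pool 36 and 29, and the replicate number as a block across genotypes 171 lower. That block, whose numbers correlated at -0.0596 and 0.0242 between KO and WT with methionine, gave 46 lower in unfractionated RNA, 39 and 33 in polysome RNA, and 41 and 23 for the difference between media. Median scaling gave 9 higher for that difference, a pseudocount of 1 gave 13, no filter on dim genes 11, and the pool as a random block 11 and 6. No filter on dim genes gave 18 higher in unfractionated RNA and 70 lower without methionine. Near Eif2ak4, 0 genes were called at 10 on each side. With methionine, omitting a single array gave 63 to 89 higher and 55 to 88 lower and omitting a pool 56 to 91 higher (62 without WT replicate 1) and 51 to 93 lower (68 without KO replicate 2). Omitting arrays gave 9 to 31 and 7 to 23 in unfractionated RNA, 6 to 36 and 7 to 15 in polysome RNA, 53 to 82 and 47 to 99 without methionine, 7 to 27 and 5 to 15 for the difference between media and 0 for that between fractions. Uncalled values changed sign for Vldlr (-0.064 with median scaling, -0.115 to 0.2211 over single arrays, -0.24 to 0.34 over pools), Ddit3 (0.20 with probe set means, -0.39 to 0.0317 over omissions), Atf4 (-0.17 to 0.0629 over single arrays, up to 0.12 over pools and 0.0472 without the WT replicate 1 pool) and Atf3 (-1.56 to 0.18 over pools). Of 36 list medians, 14 changed sign with median scaling, 2 with quantile normalization and 1 when centred on tested genes.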

Other observations

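Several metabolic enzymes, 3 of them in amino acid breakdown and all outside the lists above, were lower in KO livers in both media; they were chosen after their values were seen. Bcat2, the mitochondrial branched-chain transaminase, had a log2 fold change of -1.20 with methionine and -0.80 without. Dhtkd1, which acts in lysine and tryptophan breakdown, had -1.16 and -1.34, and Kyat3, a kynurenine aminotransferase, had -0.58 and -0.85. Xdh, an enzyme of purine breakdown, had -1.03 and -1.26, and the aldo-keto reductase Akr1c19 had -1.43 and -2.23. All 5 were called by limma in both media.

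Among rises called in both media, also chosen after their values were seen, were Pik3ap1, an adaptor of PI3-kinase (1.82 with methionine and 2.13 without), Obp2a, a lipocalin (1.59 and 2.59), Sdc4, a heparan sulfate proteoglycan (1.62 and 1.68), Hyi, hydroxypyruvate isomerase (1.28 and 0.98), and the histone demethylase Kdm2b (1.11 and 2.001).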
